A study of Populus tremula x Populus alba with 6 samples.

Results

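The loci described here are transposable element (TE) loci of the Gypsy superfamily whose first family name is that of a long terminal repeat (LTR): the first name starts with Gypsy, POPGY or GYPOT and ends in LTR, and the families Gypsy-71, Gypsy-72 and Gypsy-76 are set aside. There were 68 such loci among 436 listed TE loci, and they made 98 of 665 entries in 6 lists. They carried 18 first names and lay on 17 of 19 chromosomes, with none on chromosomes 7 and 10. The most, 12, were on chromosome 1, and 7 were on chromosome 19. No listed locus whose first name starts with GYPOT ends in LTR.

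Mobilome-seq libraries were made from shoot apical meristems of the hybrid poplar clone 717-1B4 (Populus tremula x Populus alba). This assay amplifies extrachromosomal circular DNA before sequencing, so TEs that leave circles are read more deeply. The 6 groups were RNAi ddm1 line 15, RNAi ddm1 line 23 and WT, each after drought and rewatering (called drought below) and under control watering, with 1 library per group. DDM1 is a chromatin remodeller that maintains DNA methylation and TE silencing. Its level is not measured by a DNA assay, and the labels give neither the promoter of the RNAi construct nor the number of plants in a library. No value below therefore has a replicate within its group, and tests over genotypes or libraries measure only the spread between these 6 lists.

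Gypsy elements are retrotransposons that copy themselves through an RNA. An LTR is the directly repeated end of such an element, carries its promoter and polyadenylation signals, and frames the internal part that encodes the gag and pol proteins. Circles that hold one LTR, or a pair of LTRs side by side, are known by-products of reverse transcription, and genomes also hold many solo LTRs and LTR fragments left by recombination. A locus named as LTR can be any of these.

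Each entry gives a depth value (headed DOC), a split-read value (headed SR, taken here to mean reads split over a junction, as where a circle closes), and the fraction of the locus covered by each. The values are whole numbers, taken here as not scaled to library size, and the files do not state if they are read counts. A locus missing from a list is called unlisted, since no source used here gives the threshold for listing. The placing of reads that match several near-identical copies is not stated either, so a value may belong to a family more than to the single copy named. Summed depth over each whole list ran from 22388 to 92011, and 1 leading locus outside the LTR-named set held between 49.5% and 81.8% of it. Coordinates are those of the deposited tables, counted from 1, and were set against no genome sequence or gene annotation.

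The LTR-named loci had low depth values, while their length was near that of listed loci in general. Their length had a median of 233 bp (104 to 2030 bp over the 68 loci), against 251.5 bp over all 436. Of the 68, 32 were under 200 bp (47.1%, against 39.7% of all), and 3 reached 1000 bp. Their depth value had a median of 17 (3 to 661 over the 98 entries), against 32 over the 567 entries of all other loci, and their split-read value a median of 6 (3 to 211), against 7. The name field of 47 of the 68 held more than 1 entry, repeats of the same name included. In 14 the further names included Gypsy-71, Gypsy-72 or Gypsy-76 LTRs, in 3 an Ogre element, and in 3 an element of another class (L1-1_PTr, Copia43-PTR_I-int or Helitron-N3_PTr). The 12 POPGY1_LTR and POPGY2_LTR loci carried POPGY names only, and no LTR-named locus first named for another family carried a POPGY name.

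The POPGY1_LTR and POPGY2_LTR loci fell into a narrow length class, a feature that was singled out after the values were seen. Of 12 POPGY loci, 10 were between 136 and 156 bp long (median 146 bp), and the other 2 were 1386 and 1582 bp. Of the 56 other LTR-named loci, 4 fell between 130 and 160 bp. The 10 short POPGY loci lay on 7 chromosomes. Their depth values were low in all libraries that listed them, from 3 to 24 with a median of 8 over 19 entries. Split reads covered a median fraction of 0.902 of their length, against 0.769 over the 66 entries of loci outside the LTR-named set that are 130 to 160 bp long. Over the 71 entries of the LTR-named families other than POPGY, whose loci had a median length of 267 bp, it was 0.397. Of the 12 POPGY loci, 8 were listed in 2 or more libraries (66.7%), against 11 of the other 56 (19.6%) and 26.6% of all 436 loci. The 8 include both long loci. Of the 10 short ones it was 6 (60%), against 13 of 42 loci (31.0%) of 130 to 160 bp outside the LTR-named set.

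**Figure D1:**
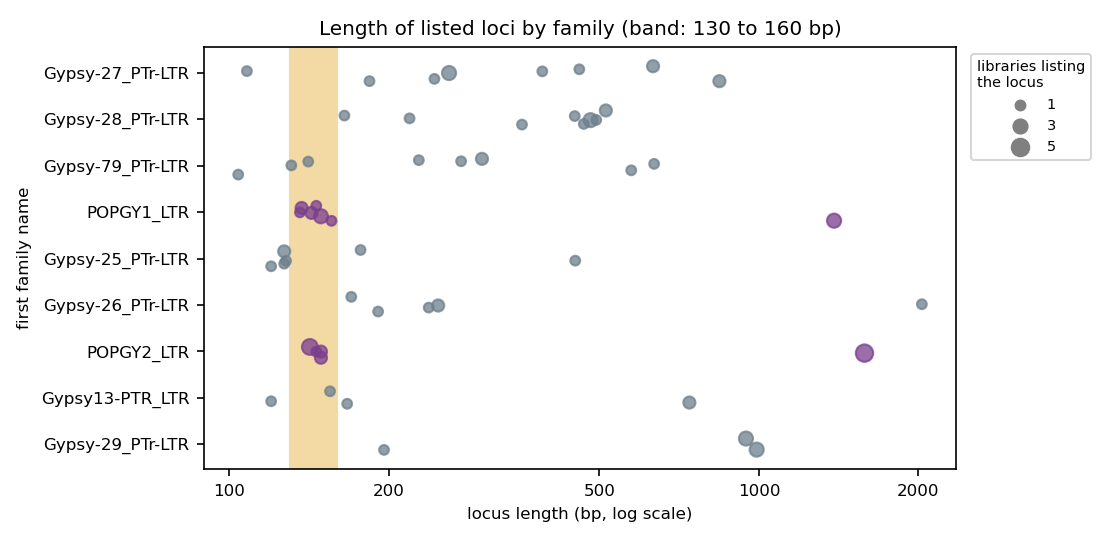
Length in bp (log scale) of each LTR-named locus in the 9 families with 3 or more loci; each point is a locus, its size the number of libraries that listed it, and the band marks 130 to 160 bp. Of the 12 POPGY loci (purple), 10 lie in the band and 2 lie at 1386 and 1582 bp, while the Gypsy-27, Gypsy-28 and Gypsy-79 loci spread from 104 to 842 bp.

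The LTR-named locus listed most often was the long POPGY2_LTR on chromosome 3 (2902731 to 2904312, 1582 bp), found in 5 of 6 libraries. Its depth value was 292 in line 15 drought and 649 in line 15 control, 258 in line 23 control, and 208 in WT drought and 280 in WT control, and it was unlisted in line 23 drought. Its split-read value was 69 and 201 in line 15 drought and control, 66 in line 23 control, and 96 and 90 in WT drought and control. As deposited, depth was therefore lower after drought in both genotypes that listed it under each watering, while split reads were lower in line 15 alone. The direction in WT depends on the scale. Divided by the summed depth of the list, 0 of 6 LTR-named loci listed under both waterings were lower after drought in WT, and 4 of 5 in line 15. Split reads covered a fraction of 0.398 to 0.614 of the locus.

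The long POPGY1_LTR on chromosome 5 (13506586 to 13507971, 1386 bp) carried split-read values close to or above its depth values. Its depth value was 81 and 76 in line 15 drought and control and 84 in WT control, beside split-read values of 80, 78 and 124 in the same libraries. It was unlisted in both line 23 libraries and in WT drought. Its depth values as deposited in the 2 line 15 libraries differed by 0.09 on the log2 scale (drought over control). On that scale it was the smallest difference among the LTR-named loci listed under both waterings of a genotype.

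Of the short POPGY loci, the one listed most often was POPGY2_LTR on chromosome 2 (18666790 to 18666931, 142 bp). Its depth value was 8 and 12 in line 15 drought and control, 8 in line 23 control and 24 in WT drought, with split-read values of 3, 9, 3 and 6. A second POPGY2_LTR lay 10573 bp away (18677505 to 18677653, 149 bp), the shortest distance between 2 LTR-named loci with the same first name. It was listed in drought libraries only, with depth values of 18 in line 15 and 10 in WT. POPGY1_LTR on chromosome 4 (23745263 to 23745411, 149 bp) had 8 in the control library of either RNAi line and 17 in WT drought, so the libraries listing it differed in watering between RNAi lines and WT.

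Gypsy-27 and Gypsy-29 LTRs held the other loci listed in 3 libraries with depth values above 100. Gypsy-27_PTr-LTR on chromosome 12 (7588649 to 7588908, 260 bp) had depth values of 212 in line 15 drought, 273 in WT drought and 457 in WT control, but split-read values of only 4, 10 and 9. Gypsy-29_PTr-LTR on chromosome 4 (15931405 to 15932394, 990 bp) had 187 in line 15 drought, 123 for the line 23 control library and 232 in WT control, with split reads of 6, 13 and 29. Gypsy-29_PTr-LTR on chromosome 8 (15837418 to 15838362, 945 bp) had 188 in line 15 control, 120 in WT drought and 162 in WT control, with split reads of 6, 3 and 4. These 2 Gypsy-29 loci are alike in length and both also carry the name Gypsy-76_PTr-LTR. The ratio of split reads to depth was low in all 3 loci, and its median over the Gypsy-29 entries, 0.032, was the lowest of the families with 3 or more loci.

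Gypsy-28_PTr-LTR on chromosome 1 (18246563 to 18247043, 481 bp) had depth values of 30 in line 15 drought, 51 in WT drought and 72 in WT control. With the loci above it completes the 8 LTR-named loci listed in at least 3 libraries, which is 11.8% of the 68. Among all 436 loci the share was 14.9%. Listing in at least 2 libraries was found for 19 of 68 (27.9%), against 26.6% of all loci, and none was listed in all 6 (1.61% of all loci, and 1 of 61 Gypsy internal-part loci, or 1.64%). The LTR-named loci were thus shared between libraries about as often as loci in general.

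**Figure D2:**
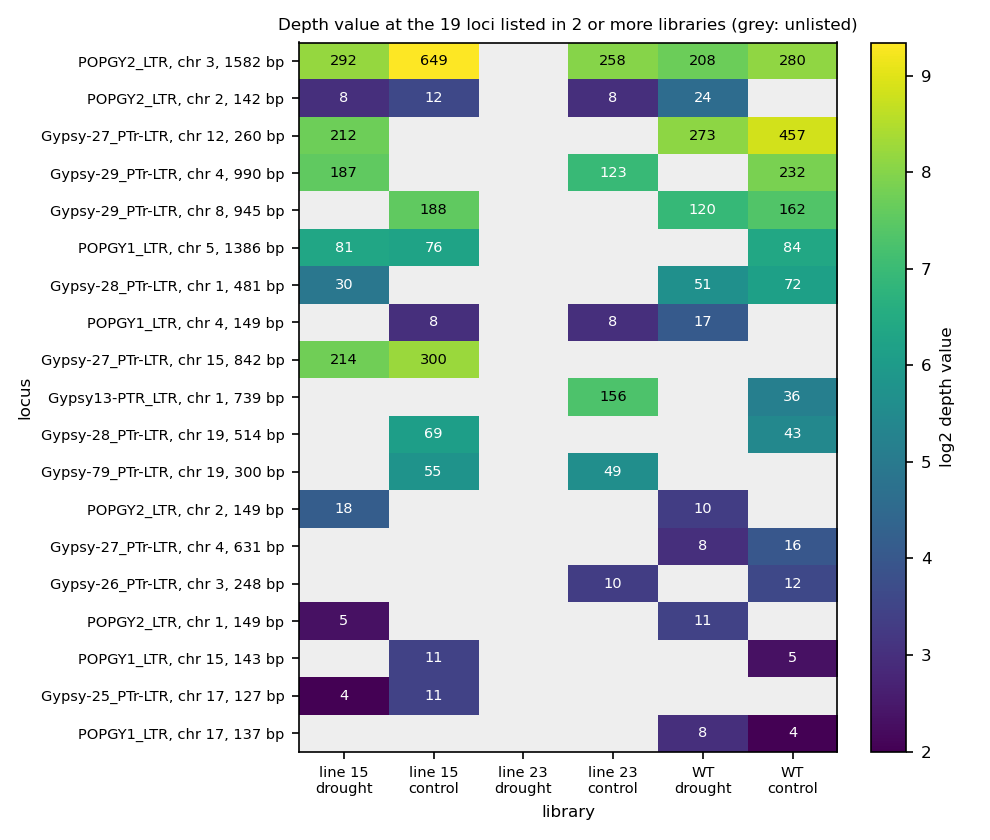
Depth value as deposited (number in each cell, colour on a log2 scale) at the 19 LTR-named loci listed in 2 or more libraries; rows are loci with chromosome and length, columns are libraries, and grey cells are unlisted. The column for line 23 drought is empty, and POPGY2_LTR on chromosome 3 is the only row with 5 values, from 208 to 649.

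The other deep or split-read-rich loci were each listed in 1 or 2 libraries. Gypsy-26_PTr-LTR on chromosome 6 (957048 to 959077, 2030 bp) was the longest LTR-named locus and had the highest depth value, 661, with a split-read value of 28, in line 15 control alone. Gypsy-28_PTr-LTR on chromosome 2 (18549439 to 18549905) had a depth value of 573 and a split-read value of 4 in WT control alone. Gypsy-27_PTr-LTR on chromosome 15 (5951514 to 5952355), which also carries an L1-1_PTr name, had depth values of 214 in line 15 drought and 300 in line 15 control, with split reads of 3 and 4. At these 3 loci split reads were few relative to depth, although the value of 28 places the Gypsy-26 locus among the 8 LTR-named loci highest in split reads.

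Other loci were named for their high split-read values. Gypsy13-PTR_LTR on chromosome 1 (49644326 to 49645064, 739 bp) had the highest split-read value, 211, beside a depth value of 156 in line 23 control, while WT control listed it with 8 and 36. Gypsy10-PTR_LTR on chromosome 12 (7546658 to 7546828, 171 bp) had a split-read value of 126 and a depth value of 196 in WT drought alone. Gypsy-28_PTr-LTR at a second place on chromosome 2 (18151906 to 18152070, 165 bp) had 47 split reads and a depth value of 5 in WT drought alone, the highest ratio of the 98 entries at 9.40. Gypsy10-PTR_LTR on chromosome 14 (14367750 to 14368693, 944 bp) had 31 split reads and a depth value of 82 in WT control alone, a ratio near the median of the 98 entries. Split reads outnumbered the depth value in 14 of 98 entries (14.3%), against 9.92% of all 665 entries and 6.48% of the 108 internal-part entries. Among the 82 entries of Gypsy-71, Gypsy-72 and Gypsy-76 LTR loci the share was 11%. These 14 entries were 2 of 14 in line 15 drought, 1 of 25 in line 15 control, 0 of 2 in line 23 drought, 3 of 16 in line 23 control, 4 of 19 in WT drought and 4 of 22 in WT control. The share differed with length. It was 21.4% of the 42 LTR-named entries under 200 bp and 8.93% of the 56 of 200 bp or more. Among the 14 internal-part entries under 200 bp it was 14.3%, so the shares above compare loci of unlike length.

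The first comparison asked how the LTR-named loci differed after drought and rewatering. Fewer were listed after drought in all 3 genotypes, with 14 in line 15 drought against 25 in line 15 control, 2 in line 23 drought against 16 in line 23 control, and 19 in WT drought against 22 in WT control. Over the genotypes this averaged -9.33 loci (SD 5.69, n = 3, two-sided exact sign-flip p = 0.25, the smallest that 3 genotypes allow). The lists as a whole also shortened, to 79 loci in line 15 drought against 169 in line 15 control, 44 in line 23 drought against 109 in line 23 control, and 115 in WT drought against 149 in WT control. The 95% Poisson intervals of the LTR-named counts, which cover counting error only, were 7.65 to 23.5 and 16.2 to 36.9 in line 15 drought and control, 0.242 to 7.22 and 9.15 to 26.0 in line 23 drought and control, and 11.4 to 29.7 and 13.8 to 33.3 in WT drought and control. With a depth value of at least 20, the mean difference was -5.67 loci.

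As a share of the list, the LTR-named loci did not move alike in the genotypes. The share was 17.7% after drought against 14.8% under control watering in line 15, 4.55% against 14.7% in line 23, and 16.5% against 14.8% in WT. The exact 95% Clopper-Pearson intervals were 10.04 to 27.9 and 9.81 to 21.1 in line 15 drought and control, 0.555 to 15.5 and 8.63 to 22.7 in line 23 drought and control, and 10.2 to 24.6 and 9.49 to 21.5 in WT drought and control. These intervals, like those of the counts, cover counting error within a library and not the spread between libraries of a group. The mean change was -1.82 percentage points (SD 7.23, n = 3 genotypes, two-sided exact sign-flip p = 1), and it was 2.34 without line 23. The 3 control lists lay within 14.7% to 14.8%.

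The higher share after drought in line 15 and WT went with the POPGY loci. They made 5 of 79 listed loci in line 15 drought and 5 of 169 in line 15 control, 0 of 44 in line 23 drought and 5 of 109 in line 23 control, and 8 of 115 in WT drought and 4 of 149 in WT control. Leaving them out was a setting chosen after the values were seen. The share of the full list was then 11.4% after drought against 11.8% in line 15, 4.55% against 10.1% in line 23 and 9.57% against 12.1% in WT. The mean change was -2.83 percentage points, and the line 15 change was only -0.44. POPGY loci made a larger part of the drought list in line 15 and WT, so leaving them out must lower the change there. The common direction is therefore no test of a drought effect. In WT the short POPGY loci numbered 7 after drought, with depth values from 7 up to 24, and 2 under control watering, with depth values of 4 and 5. In line 15 they numbered 3 and 3, and in line 23 they numbered 0 and 4.

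**Figure D3:**
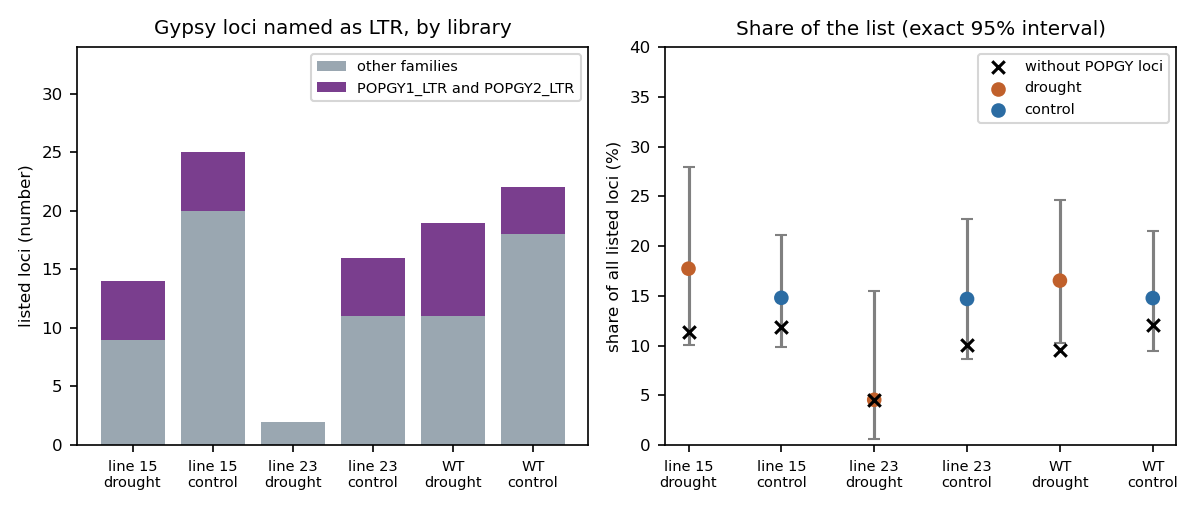
Left, the number of LTR-named loci in each library, with POPGY1_LTR and POPGY2_LTR in purple; right, their share of all listed loci in percent with exact 95% Clopper-Pearson intervals, crosses marking the share without POPGY loci. Line 23 drought stands lowest, with 2 loci and 4.55%, and the 3 control libraries lie within 14.7% to 14.8%.

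Line 23 drought listed 2 LTR-named loci, and both were listed in no other library. They were Gypsy-27_PTr-LTR on chromosome 11 (10853579 to 10853822), with a depth value of 14, and Gypsy-26_PTr-LTR on chromosome 13 (7946996 to 7947186), with a depth value of 6, each with 4 split reads. They are named here after their values were seen. Of the 42 other loci in that list, 12 (28.6%) were in no other library. In the remaining 5 libraries the part of LTR-named loci found nowhere else ran from 28.6% in line 15 drought (46.2% of the other loci there) to 60% in line 15 control (54.2% of the other loci there).

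At LTR-named loci listed under both waterings of a genotype, the depth value as deposited was mostly lower after drought. The same held over all loci listed under both waterings. Of the loci in the control list, the drought list also held 5 of 25 in line 15 (17.8% of all loci in that control list), 0 of 16 in line 23 (13.8% of all) and 6 of 22 in WT (27.3%, against 25.5% of all). Line 15 had 5 such loci, of which 4 had a lower depth value after drought (63.3% of all 30 loci listed under both waterings), with a median log2 ratio of -0.58 (-0.32 over all 30). WT had 6, of which 5 were lower (83.3%, against 65.8% of all 38), with a median of -0.47 (-0.38 over all 38). Line 23 had none, out of 15 loci listed under both waterings. The mean of the 2 medians was -0.53 (n = 2 genotypes, two-sided exact sign-flip p = 0.5, the smallest possible). Divided by the summed depth of the list, the medians were -0.11 in line 15 (0.15 over all 30 loci) and 1.13 in WT (1.21 over all 38). This division moves every log2 ratio of a genotype by the same amount. It can change the direction after drought, but not the difference between the median of LTR-named loci and that of all loci. The shares of loci lower after drought can change too. After the division they were 0 of 6 against 1 of 38 in WT, and 4 of 5 against 15 of 30 in line 15.

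In depth value as deposited, single loci differed by 2-fold or more in few cases. In line 15, 2 of 5 loci were at least 2-fold lower after drought, against 23.3% of all loci listed under both waterings. They were POPGY2_LTR on chromosome 3 (292 against 649, log2 ratio -1.15) and Gypsy-25_PTr-LTR on chromosome 17 (6244290 to 6244416), at 4 against 11 (-1.46), and none was 2-fold higher (3.33% of all). In WT, 1 of 6 was lower (10.5% of all), Gypsy-27_PTr-LTR on chromosome 4 (12762413 to 12763043) at 8 against 16, and 1 of 6 was higher (15.8% of all), POPGY1_LTR on chromosome 17 (9524128 to 9524264) at 8 against 4. Except for the POPGY2_LTR locus, these are depth values of 16 or less. With 1 library per group the ratios have no test.

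Some loci were listed under 1 watering only, in at least 2 genotypes. In drought libraries alone there were 2 of 68 (2.94%), against 1.15% of all loci, and both were short POPGY2_LTR loci listed in line 15 and WT: the second chromosome 2 locus above and one on chromosome 1 (2934786 to 2934934, 149 bp; depth values 5 in line 15 and 11 in WT). In control libraries alone there were 5 of 68 (7.35%), against 6.65% of all loci and 9.84% of the internal-part loci. They were Gypsy13-PTR_LTR on chromosome 1 described above, Gypsy-28_PTr-LTR on chromosome 19 (6639779 to 6640292; 69 in line 15 and 43 in WT), Gypsy-79_PTr-LTR on chromosome 19 (6497691 to 6497990; 55 in line 15 and 49 in line 23), Gypsy-26_PTr-LTR on chromosome 3 (5048301 to 5048548; 10 in line 23 and 12 in WT) and POPGY1_LTR on chromosome 15 (5796266 to 5796408; 11 in line 15 and 5 in WT). Control lists were longer than drought lists in all 3 genotypes, so the counts for the 2 waterings are not on equal terms.

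The second comparison set the RNAi lines, in which ddm1 is the target, against WT. The number of LTR-named loci averaged 14.25 over 4 RNAi libraries of both waterings (SD 9.46) and 20.5 in WT (19 and 22), a difference of -6.25 (two-sided exact permutation p = 0.533 over 15 splits, where 0.0667 is the smallest possible, and p = 0.444 over 9 splits matched by watering, where 0.111 is). Without line 23 the difference was -1, and without line 15 it was -11.5. Under control watering line 15 was above WT and line 23 below, at 25 and 16 against 22. After drought line 15, at 14, and line 23, at 2, were both below WT, at 19. The share of the list averaged 12.9% over the RNAi libraries (SD 5.77) and 15.6% in WT (16.5% and 14.8%), a difference of -2.71 percentage points (two-sided exact permutation p = 0.733, and 0.889 matched by watering), which was 0.61 without line 23. The 4 RNAi libraries are 2 lines, each under both waterings. They are not independent replicates, though the permutations treat single libraries as exchangeable, and each SD mixes line and watering.

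By locus, 33 of 68 were listed in an RNAi line and not in WT (48.5%, against 48.2% of all loci), and 21 of 68 in WT and no RNAi line (30.9%, against 30.5%). The LTR-named loci divided between RNAi lines and WT as the loci in general did. Listing in both RNAi lines and not in WT was found for 1 locus (1.47%, against 2.75% of all loci), the Gypsy-79_PTr-LTR on chromosome 19 above. In all 3 genotypes there were 4 (5.88%, against 9.40% of all loci). Line 15 and WT shared 12 loci (17.6%, against 17.4%), which is 12 of 34 in line 15 and 12 of 35 in WT. Line 23 shared 6 of its 18 loci with WT (8.82% of the 68, against 13.3% of all) and 5 with line 15 (7.35%, against 12.2%).

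The counts by genotype are given here for the 7 families with 3 or more loci beside POPGY, none of them tested. Of all 436 loci, line 15 listed 50%, line 23 31.7% and WT 51.8%. Gypsy-28_PTr-LTR had 8 loci, of which 3 were listed in line 15, 0 in line 23 and 7 in WT. Gypsy-25_PTr-LTR had 6 loci, 5 in line 15, 0 in line 23 and 1 in WT, and 5 of the 6 also carry the name Gypsy-72_PTr-LTR. Gypsy-27_PTr-LTR had 8 loci, 4 in line 15, 2 in line 23 and 3 in WT. Gypsy-79_PTr-LTR, also with 8, had 5 in line 15, 2 in line 23 and 2 in WT. By watering, the loci listed after drought and under control watering numbered 1 and 7 in Gypsy-79, 5 and 6 in Gypsy-27, and 4 and 5 in Gypsy-28. They numbered 2 and 5 in Gypsy-25, 1 and 4 in Gypsy-26, 1 and 3 in Gypsy13, and 2 and 3 in Gypsy-29. These family counts include loci listed under both waterings. Of all 436 loci, 24.5% were listed after drought alone, 56.7% under control watering alone and 18.8% under both.

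Gypsy-26_PTr-LTR had 5 loci and Gypsy13-PTR_LTR had 4, with 1 to 2 of each listed in any genotype, and Gypsy-29_PTr-LTR had 3, with 3 in line 15, 1 in line 23 and 2 in WT. The 9 remaining first names had 1 or 2 loci each: Gypsy10, Gypsy15, Gypsy21, Gypsy-74 and Gypsy-78 with 2, and Gypsy1, Gypsy-30, Gypsy-73 and Gypsy-75 with 1. Among them Gypsy-73_PTr-LTR on chromosome 19 (1817099 to 1818085, 987 bp), listed in line 15 control with a depth value of 82, was among the 5 longest LTR-named loci.

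Each library was also used to set the LTR-named loci against the internal-part loci of Gypsy elements (61 loci, 108 entries), the segments that encode gag and pol. The LTR-named loci were shorter in 6 of 6 libraries. The median length was 308.5 bp against 389 bp in line 15 drought, 274 against 552 in line 15 control, 217.5 against 580.5 in line 23 drought, 238 against 467 in line 23 control, 167 against 519 in WT drought and 458 against 638 in WT control. The mean difference was -247 bp (SD 108, n = 6 libraries, two-sided exact sign-flip p = 0.031, adjusted p = 0.0833 over 8 comparisons), so it did not pass after adjustment. It was -133 bp among loci listed in a single library and -27.1 bp at depth values of at least 20 (shorter in 3 of 5 libraries). The unadjusted p cannot be lower with 6 libraries, the libraries share some loci, and line 23 drought enters with 2 LTR-named loci.

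Split reads were more frequent relative to depth at the LTR-named loci than at the internal-part loci of each library, but this did not pass after adjustment. The median ratio of split reads to depth was 0.278 against 0.188 in line 15 drought, 0.333 against 0.220 in line 15 control, 0.476 against 0.309 in line 23 drought, 0.481 against 0.200 in line 23 control, 0.643 against 0.25 in WT drought and 0.356 against 0.240 in WT control. It was higher at the LTR-named loci in 6 of 6 libraries (mean difference 0.19, SD 0.12, two-sided exact sign-flip p = 0.031, adjusted p = 0.0833). Within the LTR-named loci the median ratio was 0.667 over the 42 entries under 200 bp and 0.246 over the 56 entries of 200 bp or more. Among loci of 100 to 300 bp, a range chosen after the values were seen, the mean difference was 0.07 against internal-part loci (higher in 4 of 6 libraries, exact sign-flip p = 0.656, adjusted p = 0.656) and 0.17 against all other loci (higher in 5 of 6, exact sign-flip p = 0.0938, adjusted p = 0.188). Among loci with a depth value of at least 20 the mean difference from internal-part loci was 0.03 over the 5 libraries that have such LTR-named loci. Among loci listed in a single library it was 0.011 (higher in 3 of 6 libraries).

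The fraction of the locus covered by split reads was higher at the LTR-named loci in 5 of 6 libraries, the exception being WT control (mean difference 0.20, SD 0.16, two-sided exact sign-flip p = 0.0625, adjusted p = 0.0833). In the same range of 100 to 300 bp it was higher in 6 of 6, with a mean difference of 0.31 (two-sided exact sign-flip p = 0.031, adjusted p = 0.0833). Depth per bp on the log2 scale was lower at the LTR-named loci in 5 of 6 libraries, the exception being line 15 control (mean difference -0.70, SD 0.59, two-sided exact sign-flip p = 0.0625, adjusted p = 0.0833).

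**Figure D4:**
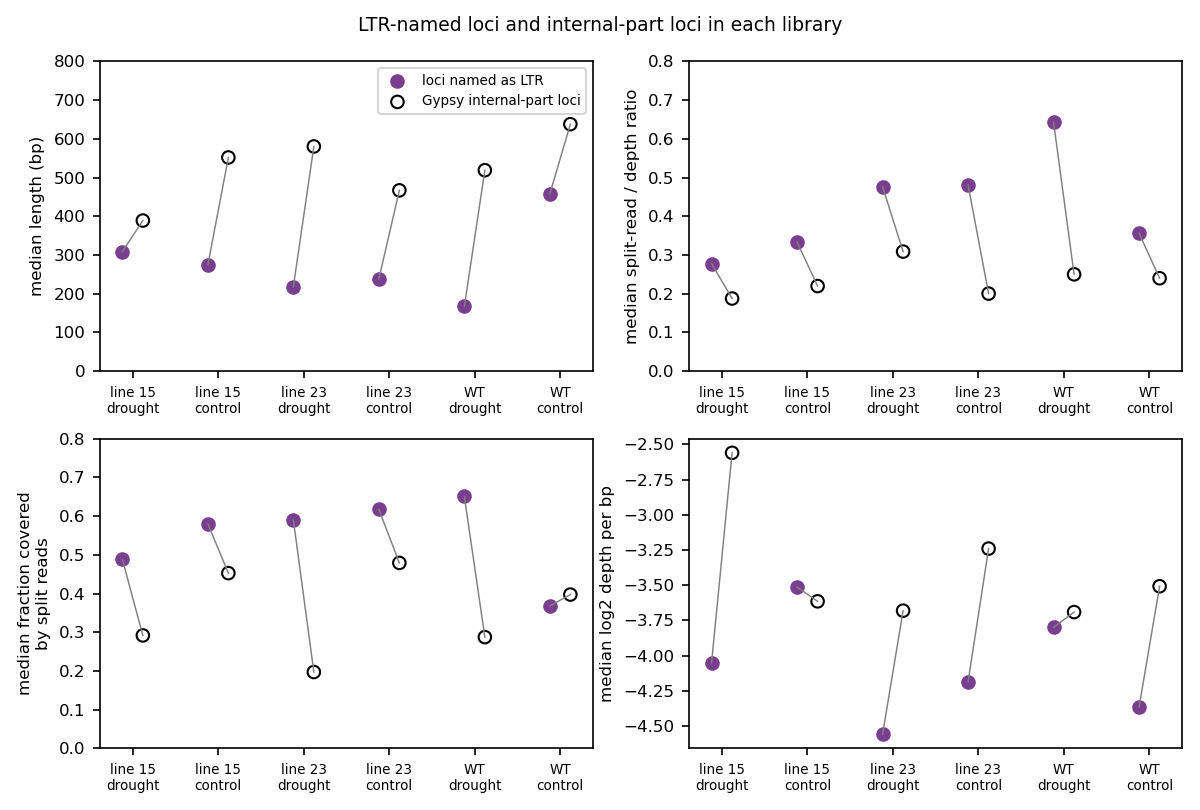
Median length (bp), median ratio of split-read to depth value, median fraction of the locus covered by split reads, and median log2 depth value per bp in each library, for LTR-named loci (filled) and Gypsy internal-part loci (open), joined by a line. The filled points lie lower in length and higher in the ratio in 6 of 6 libraries; line 23 drought rests on 2 LTR-named loci.

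Set against all other loci of the same library, the LTR-named loci had a lower depth per bp in 6 of 6 libraries (mean log2 difference -0.68, SD 0.42, two-sided exact sign-flip p = 0.031, adjusted p = 0.0833). The difference was -0.13 among loci listed in a single library and -0.042 at depth values of at least 20. The ratio of split reads to depth was higher in 5 of 6 (mean 0.12, SD 0.11, two-sided exact sign-flip p = 0.0625, adjusted p = 0.0833), and so was the fraction covered by split reads (mean 0.13, SD 0.11, p = 0.0938, adjusted p = 0.107, exact sign-flip). Length was shorter in 3 and longer in 3 (mean -14.9 bp, SD 75.8, exact sign-flip p = 0.594). None of the 8 comparisons passed an adjusted p of 0.05.

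An internal-part name stood among the further names of 2 LTR-named loci. These are the Gypsy10-PTR_LTR on chromosome 14, with Gypsy10-PTR_I-int of its own family, and a Gypsy13-PTR_LTR on chromosome 5, with Copia43-PTR_I-int. Of the 9 families with 3 or more LTR-named loci, internal-part loci of the same name were listed for 5: Gypsy13 with 18, Gypsy-28 with 6, Gypsy-27 and POPGY1 with 4 each and Gypsy-25 with 1. None of the 68 LTR-named loci had a separately listed internal-part locus of its own family within 10000 bp, and 8 had one on the same chromosome. The shortest such distance was 35285 bp, at Gypsy-28_PTr-LTR on chromosome 8 (15435791 to 15436147). Another listed locus of any kind lay within 1000 bp of 2 LTR-named loci, which are neighbours of each other: Gypsy13-PTR_LTR (9811988 to 9812107) and Gypsy-79_PTr-LTR (9812148 to 9812375) on chromosome 5, 40 bp apart and both listed in line 23 control alone, with depth values of 12 and 26 and split reads of 11 and 12.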

How the data were processed

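Mobilome-seq lists of 6 libraries, 1 per group, were used; the sheet of each list matches the title of 1 sample, and groups come from the genotype and stress labels. CTAB extracts were enriched for circular DNA by amplification, per the labels' protocols, and Nextera XT libraries were read as 2 x 250 bp on a MiSeq. The submitters' processing notes name Bowtie2. The sources used here give no version of it, genome build, counting method or listing threshold. The deposited depth and split-read columns are headed as coverage and hold whole numbers, which are taken here as unscaled. The covered parts, headed percent, hold values of 0 to 1 and are a deposited fraction. The lowest deposited values were 3 for both signals and 0.801 for the fraction covered by depth. Sequencing depth per library is not given in the tables.

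Members were taken by first family name and matched by identical coordinates (start plus 1). Numbers and shares were compared by exact sign-flip over 3 genotypes and by exact permutation over 15 splits; medians of LTR-named loci minus other loci by exact sign-flip over 6 libraries, with Benjamini-Hochberg adjustment over 8 comparisons. Internal-part loci are those with a Gypsy, POPGY or GYPOT first name without LTR. Named loci were those in 3 or more libraries, the 8 highest in depth and in split reads, the 5 longest, those in 2 or more libraries of one watering alone, and families of 3 or more loci. Members, lists and rules were chosen with earlier results of these data known. Tests were tried on simulated data. Python 3.11.15, pandas 2.3.3 and scipy 1.17.1 were used. Alternatives were a minimum depth of 20, merging within 1000 bp, any family name, other weights and scales, loci of a single library, and, chosen after seeing the data, loci of 100 to 300 bp and loci other than POPGY, and leaving out genotypes or libraries.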

Additional observations from a re-analysis of the deposited data

Results flagged for a closer look

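The change of the LTR-named share after drought had opposite signs between genotypes: 2.93 percentage points in line 15 and 1.76 in WT, against -10.1 in line 23. With 1 pair of libraries per genotype this difference was not tested. The line 23 value rests on 2 loci in the drought list, and POPGY loci were unlisted there.

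The number of LTR-named loci in line 15 minus that in WT was 3 under control watering and -5 after drought. This difference was not tested either, and the share of the list in line 15 was higher than in WT under both waterings (by 0.028 and 1.20 percentage points).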

How the results depend on the processing

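Of 115 values under alternatives for 13 results, 104 kept their direction and 11 changed it. No call was gained or lost at 0.05 (adjusted p for the 8 comparisons between kinds of loci), and none of the 13 passed. Drought against control and RNAi against WT could not pass in any setting, since their smallest possible p is 0.0667 or more. The 8 comparisons could not pass with a library left out, where the smallest possible p is 0.0625. In these settings the side of the threshold was fixed in advance. The number of LTR-named loci, drought minus control, was negative throughout (-12.5 to -7 with each genotype left out). For the share, drought minus control, the range with a genotype left out was -4.19 to 2.34 percentage points. RNAi minus WT in number ran from -12.5 with any family name counted to -1 without line 23 (-11.5 to -1 with a line left out). In share it turned to 0.35 weighted by length and ran from -6.03 to 0.61 with a line left out. The depth ratio turned to 0.51 on division by the summed depth and to 0.46 on division by that sum without the leading locus (the last chosen after seeing the data). Against internal-part loci, depth per bp turned to 0.18 among loci listed in a single library and to 0.10 at depth values of at least 20, and the fraction covered by split reads turned to -0.0080 at that minimum. Against all other loci, the fraction turned to -0.069 and the length to 218.8 bp at that minimum, and the length ran from -34.3 to 3.3 bp with a library left out. At depth values of at least 20 no LTR-named locus is left in line 23 drought, so 5 libraries enter, and 5 libraries cannot give a p below 0.0625; the causes of the other changes were not tested. No paired analysis was possible because each group has 1 library, so that no replicate numbers are shared; libraries were paired by genotype, and kinds of loci within a library, in the main comparisons. Unscaled values without a known sequencing depth limit every comparison of depth, and low values near the listing threshold limit comparisons of listing.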
